A study of Mus musculus with 5 samples.

Results

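Caldesmon (Cald1), the PDZ-LIM proteins Pdlim5 and Pdlim7, filamin A (Flna), profilin (Pfn1), smooth muscle actin (Acta2), transgelin 2 (Tagln2), calponin 3 (Cnn3), the LIM protein Csrp2 and the capping protein Capg bind actin or belong to the contractile apparatus. These 10 genes were measured by 14 of the 20205 spotted cDNA probes, all of them probes assigned to exactly 1 gene symbol. The genes were selected on their measured ratio of Erbb2-transfected over parental cells together with their role, so that ratio is given for them as a description, with no p-value. The data came from 5 two-colour arrays of 2 mouse fibroblast lines. The parental line was NIH3T3, an immortalised mouse fibroblast line. The other line was NIH3T3 that constitutively overexpressed human HER-2/neu (ERBB2), a receptor tyrosine kinase, from the cytomegalovirus (CMV) promoter. Both were grown in the same serum-containing medium with no other treatment named, and the sources used here do not say whether the transfected line was 1 clone or a pool. RNA of both lines was hybridised to every array, on 3 arrays of preparation A (A1, A2 and A3) and 2 arrays of preparation B (B1 and B2). The labels do not name the preparations as separate cultures, and the p-values given here then measure only a spread that may be technical.

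Actin monomers assemble into filaments, and the cell sets the length, branching and contractility of those filaments through proteins that bind monomers, cap or sever ends, crosslink filaments or regulate myosin. In fibroblasts, bundles of actin and myosin form stress fibres that end at focal adhesions, and PDZ-LIM proteins, calponins and caldesmon lie along them. Many of these genes are known targets of serum response factor, which binds the CArG box and is activated when free actin monomers are depleted, and some are targets of TEAD factors. Loss of stress fibres is a long-known feature of transformed fibroblasts.

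Each value is the log2 of the level in Erbb2-transfected cells over that in NIH3T3 cells, so that -1 is a level lower by 2-fold in transfected cells and 0 is no difference. Erbb2 cDNA carried the dye Cy3 on A1, A2 and B1 and Cy5 on A3 and B2, and the 3 arrays with Erbb2 in Cy3 were sign-turned. The direction is likely rather than settled, because it rests on Cy5 being the numerator of the deposited ratio, and with the opposite choice every sign here would turn. Arrays held values for 5368 to 17463 probes, with medians of the turned ratios between -0.00070 and 0.0071. The 5 arrays correlated at 0.17 to 0.54 across probes after turning, a description of shared RNA and shared spots. No probe was assigned to mouse Erbb2 alone, so the transfected gene could not be read in these arrays. Of the fibroblast markers, 7 of 12 could be tested, with mean log2 ratios from -4.93 to 0.51. Of these, 3 were lower in transfected cells (Col1a1, Col1a2 and Fn1), 0 were higher, and vimentin (Vim) had 0.47 and did not pass. A ratio of 2 lines cannot show whether a marker is absent from both. Of 8 smooth muscle markers, 6 had a value on some array and 0 could be tested. The smooth muscle myosin heavy chain Myh11 had 0.09 (A2), 0.28 (A3) and 0.20 (B2), and desmin (Des) had -0.06 (B1) and -0.16 (B2). Synpo2 had 0.82 (A1), -0.29 (B1) and 0.07 (B2), and Actg2 had 0.18 (A1), 0.06 (A2), -0.42 (A3) and -0.23 (B2). Myocd had 0.35 (B1), and Smtn had 0.17 (A3) and 0.10 (B1). Skeletal muscle, epithelial and endothelial lists each had 1 tested gene, with log2 ratios of 0.21 (Tnnt3), 0.19 (Krt19) and 0.16 (Flt1), and the leukocyte list had 0.

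Promoter sequence was matched for 9 of the 10 genes (all but Csrp2), with 11 RefSeq windows of 250 bases before to 50 bases after a gene start on GRCm38.p6. They are shown because the members are often described as targets of serum response factor and TEAD factors. The CArG box (CC and GG around 6 bases of A or T, read on both strands) was in 0 of the 11 windows, against 1.63% of 32851 promoters of the same length. With 1 other base allowed among the 6, a search added after the first was seen, it was in the window of Acta2 alone, against 8.50% of promoters. The letters GGAATG, or CATTCC on the other strand, were in 5 of the 11 windows, 1 each of Acta2, Cald1, Flna, Pfn1 and Tagln2, against 14.7% of promoters. TATAAA on either strand was in 1 window each of Cald1 and Pdlim5, against 13.6% of promoters. The median GC content was 58.0% in the 11 windows and 52.7% over all promoters. A match of letters is not a bound site, and no match says only that these letters are not in this window. The whole window of Acta2, on the minus strand at chr19:34255324-34255623, is printed 5′ to 3′ with capitals at GGAATG (146 bases before the start) and at both CArG-like stretches (84 and 34 bases before the start).
Acta2: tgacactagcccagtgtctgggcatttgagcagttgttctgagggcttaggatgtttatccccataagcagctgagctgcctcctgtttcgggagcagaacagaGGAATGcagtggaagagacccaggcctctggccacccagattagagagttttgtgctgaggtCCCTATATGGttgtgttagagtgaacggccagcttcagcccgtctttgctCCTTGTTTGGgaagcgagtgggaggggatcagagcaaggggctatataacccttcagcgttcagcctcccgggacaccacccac
For the other 4 genes with GGAATG or CATTCC, only the stretch around it is printed, with the letters in capitals. These are Cald1 at chr6:34598331-34598376 (plus strand, 153 bases before the start), Flna at chrX:74246655-74246700 (minus strand, 146 bases), Pfn1 at chr11:70654677-70654722 (minus strand, 52 bases) and Tagln2 at chr1:172500108-172500153 and chr1:172500146-172500191 (plus strand, 118 and 80 bases).
Cald1: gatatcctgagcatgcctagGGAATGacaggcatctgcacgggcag
Flna: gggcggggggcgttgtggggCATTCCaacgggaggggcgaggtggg
Pfn1: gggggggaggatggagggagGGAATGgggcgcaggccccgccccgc
Tagln2, distal: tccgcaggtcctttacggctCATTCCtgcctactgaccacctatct
Tagln2, proximal: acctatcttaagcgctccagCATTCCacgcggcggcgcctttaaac

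Among the 10 genes, 8 had a negative mean log2 ratio and 2, Csrp2 and Capg, a positive one. In order, the means were Cald1 (-1.41), Pdlim5 (-0.97), Flna (-0.75), Pdlim7 (-0.62), Pfn1 (-0.58), Acta2 (-0.33), Tagln2 (-0.29), Cnn3 (-0.28), Csrp2 (1.00) and Capg (1.73). Of the 9 steps between neighbours in that order, only those from Cnn3 to Csrp2 (1.28) and from Csrp2 to Capg (0.73) exceeded the SD of both neighbours over the 2 preparations. The 8 genes on the negative side therefore could not be ranked beyond their spread from one neighbour to the next. The median of the 10 means was -0.46, beside -0.02 over the 4892 features tested. In the fit across all features, 2 members passed an adjusted p of 0.05 as higher and 2 as lower, where 2.25% of all features passed as higher and 4.54% as lower. The members were chosen on this contrast, so these counts are no test of them and nothing is read from them. Of the 39 values of the 8 genes with a negative mean, 33 were below 0, and 4 of the 6 others were on A2.

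**Figure D1:**
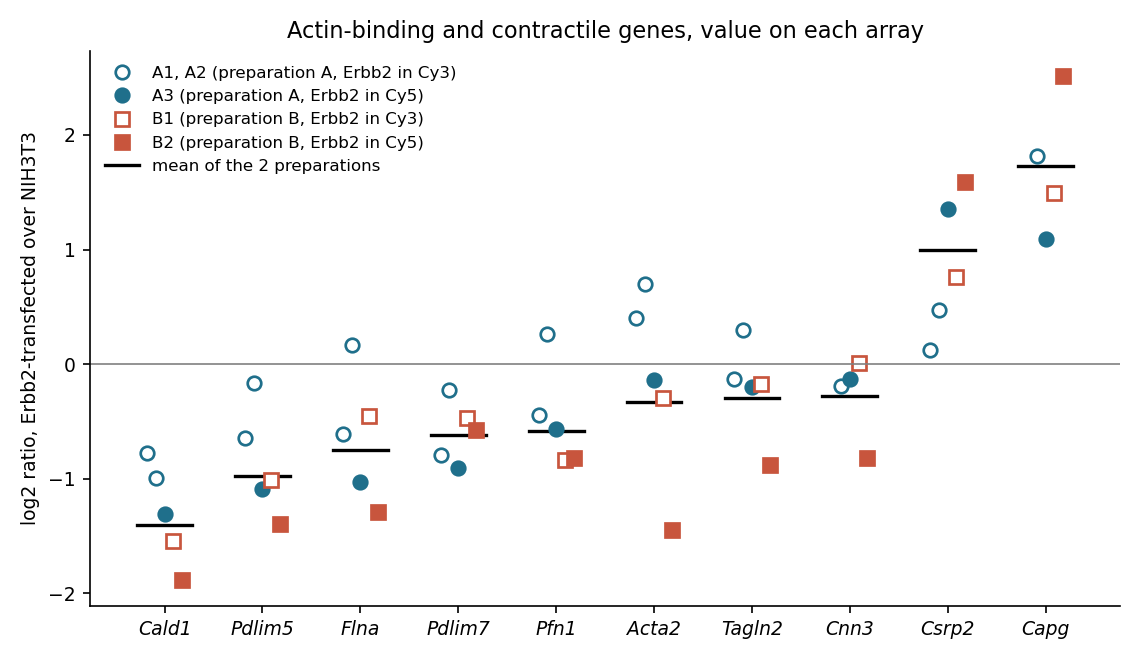
Log2 ratio, transfected over parental cells (vertical axis), for each of the 10 genes on each array, with circles for preparation A, squares for preparation B, open markers for Erbb2 in Cy3, filled markers for Erbb2 in Cy5 and the horizontal bar for the mean of the 2 preparation means. Cald1, Pdlim5 and Pdlim7 lie below 0 on all 5 arrays, Csrp2 and Capg lie above 0 wherever they were measured, and Acta2 spreads from -1.45 to 0.70.

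Caldesmon, which binds actin, tropomyosin and myosin and restrains the actomyosin ATPase, had the most negative mean of the 10 genes. Cald1 had -0.77 (A1), -0.99 (A2), -1.31 (A3), -1.55 (B1) and -1.89 (B2). All 5 arrays were below 0, and the arrays of preparation B lay below all those of preparation A. The mean was -1.41 ± 0.44 (SD, n = 2 preparations), a level lower by 2.65-fold in transfected cells.

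Smooth muscle alpha actin is the actin of contractile smooth muscle and of myofibroblasts. Acta2 had 0.40 (A1), 0.70 (A2), -0.14 (A3), -0.30 (B1) and -1.45 (B2). Both positive arrays were of preparation A, B2 was the lowest by far, and the arrays of the preparations did not overlap. The preparation means had opposite signs, 0.21 in A and -0.87 in B, so the mean of -0.33 ± 0.76 (SD, n = 2) was smaller than its spread. Without B2 it was -0.04 and without B1 it was -0.62. Leaving out A3, B1 or B2 removes a dye orientation from its preparation, so such means, here and below, are not balanced for dye. Acta2 was also the member with the widest range over arrays, 2.14 on the log2 scale.

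Transgelin 2 and calponin 3 are calponin-family proteins that bind actin filaments, and both are expressed outside smooth muscle. Tagln2 had -0.13 (A1), 0.30 (A2), -0.20 (A3), -0.17 (B1) and -0.88 (B2). A1, A3 and B1 lay close together near 0, with A2 above and B2 below them, and the mean was -0.29 ± 0.33 (SD, n = 2). Cnn3 had no value on A1 and had -0.19 (A2), -0.13 (A3), 0.01 (B1) and -0.82 (B2). Its 3 other values lay close to 0 and B2 alone was far below, giving -0.28 ± 0.17 (SD, n = 2). Without B2, Tagln2 had -0.12 and Cnn3 -0.07, and without B1 they had -0.47 and -0.49.

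The PDZ-LIM proteins Pdlim5 (ENH) and Pdlim7 (enigma) join actin filaments and alpha-actinin to signalling proteins such as kinases. Pdlim5 had -0.65 (A1), -0.16 (A2), -1.09 (A3), -1.01 (B1) and -1.40 (B2). All 5 values were below 0, with A2 nearest to it and B2 farthest. The mean was -0.97 ± 0.32 (SD, n = 2), a level lower by 1.96-fold. Pdlim7 had -0.80 (A1), -0.23 (A2), -0.91 (A3), -0.47 (B1) and -0.58 (B2). It too was below 0 on every array, with the preparations overlapping, and its mean was -0.62 ± 0.13 (SD, n = 2), the smallest spread between preparations among the 10.

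Csrp2, a LIM-only protein of the cysteine-rich protein family that binds alpha-actinin and zyxin, went the other way. Csrp2 had 0.12 (A1), 0.47 (A2), 1.36 (A3), 0.76 (B1) and 1.59 (B2). Every array was above 0, and the 2 arrays with Erbb2 in Cy5 (A3 and B2) lay above the 3 with Erbb2 in Cy3. The mean was 1.00 ± 0.25 (SD, n = 2), a level higher by 2.00-fold. Without A3 it was 0.74.

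Filamin A crosslinks actin filaments into networks and anchors them to membrane receptors. Flna had -0.61 (A1), 0.17 (A2), -1.02 (A3), -0.45 (B1) and -1.29 (B2). A2 alone was above 0, and A3 and B2 were the lowest. The mean was -0.75 ± 0.18 (SD, n = 2). It was -0.96 without B1 and -0.54 without B2.

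Profilin 1 binds actin monomers and feeds them to growing filament ends. Pfn1 had -0.44 (A1), 0.26 (A2), -0.57 (A3), -0.84 (B1) and -0.82 (B2). A2 was the only array above 0, and both arrays of preparation B lay below all those of preparation A. The mean was -0.58 ± 0.35 (SD, n = 2).

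Capg, a gelsolin-family protein that caps the barbed ends of filaments without severing them, had the largest mean of the 10 genes in absolute size. Capg had no value on A1 and had 1.81 (A2), 1.09 (A3), 1.49 (B1) and 2.51 (B2). All 4 values were above 1 and the preparations overlapped. The mean was 1.73 ± 0.39 (SD, n = 2), a level higher by 3.31-fold. Over the other settings that gave it a value, its mean ran from 1.47 to 1.99.

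Cald1, Pdlim7, Flna and Pfn1 were each measured by 2 probes, and the others by 1. The caldesmon probes had preparation-balanced means of -1.48 (probe 2568) and -1.33 (probe 7313), and both were below 0 on every array. They lay farthest apart on A2, at -1.32 and -0.67. The enigma probes had -0.72 (probe 7524) and -0.51 (probe 20001), and the first was the lower on all 5 arrays. The profilin probes had -0.65 (probe 2957) and -0.51 (probe 6009), and both were above 0 on A2, at 0.23 and 0.29. They differed most on A3, at -0.85 and -0.28. The filamin probes were unequal in coverage. Probe 5856 had a value on all arrays and a mean of -0.66, while probe 17899 had values only on A1 (-0.77), A2 (0.05) and B1 (-0.67), all below the other probe on the same array. The value of Flna on A3 and B2 therefore comes from 1 probe and on the other arrays from both.

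**Figure D2:**
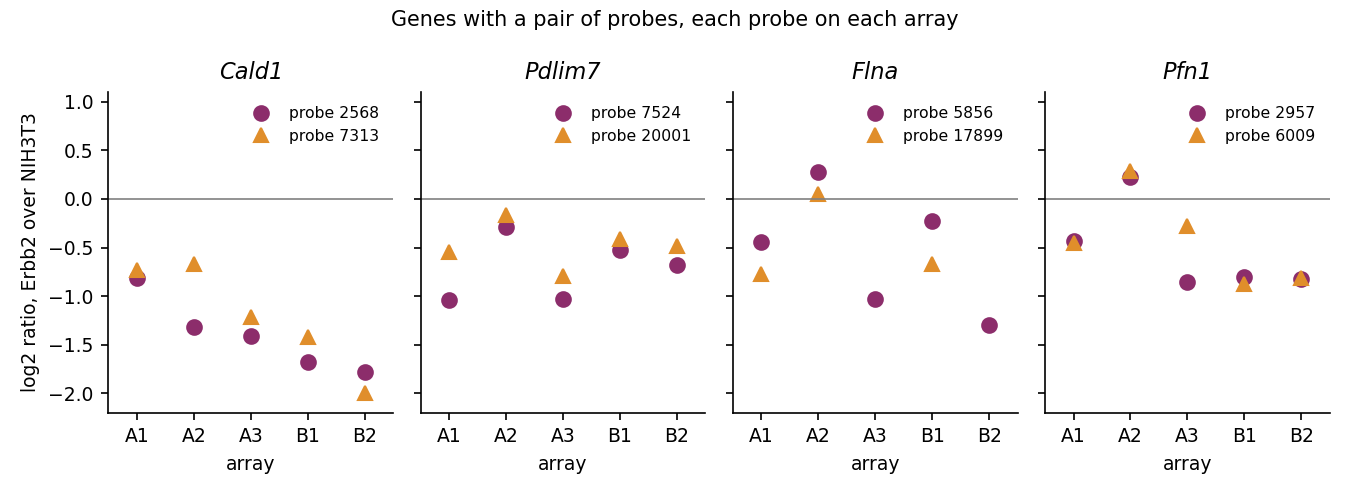
Log2 ratio of Erbb2-transfected over NIH3T3 cells on each array for the 2 probes of Cald1, Pdlim7, Flna and Pfn1, 1 panel per gene and 1 marker shape per probe. The probes of a gene follow each other from array to array, with the widest gap for Cald1 on A2 (-1.32 and -0.67), and probe 17899 of Flna has no value on A3 and B2.

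The size of the ratios differed with the dye that Erbb2 cDNA carried. In all 10 genes the mean over arrays with Erbb2 in Cy5 (A3 and B2) was larger in size than the mean over arrays with Erbb2 in Cy3, with median sizes of 0.97 and 0.40. The same held for 54.2% of all features tested (median sizes 0.33 and 0.30) and for 59.8% of the 328 other features past the threshold. These were plain means over arrays. For genes with values on A1, A2 and B1, the Cy3 mean weighted preparation A more than B, while the Cy5 mean weighted them equally. The part of preparation in the sizes was not tested. Flna had -1.16 with Erbb2 in Cy5 and -0.30 with Erbb2 in Cy3. Acta2 had -0.79 and 0.27, so its sign differed between the orientations. Csrp2 had 1.47 and 0.45, whereas Capg had 1.80 and 1.65. Among the 8 genes with a value on all arrays, the orientations did not overlap for 4 (Csrp2, Flna, Pdlim5 and Tagln2), beside 30.7% of 2872 such features. Averaging the orientations within each preparation cancels an additive dye effect in the means of the members other than Flna. Probe 17899 of Flna had values only with Erbb2 in Cy3, so its orientations compare unlike sets of probes. With probe 5856 alone the mean of Flna was -0.66 in place of -0.75. Cald1, Pdlim5, Pdlim7, Csrp2 and Capg kept 1 sign on every array that measured them (50% of members), beside 24.3% of all features tested. The members were chosen on this ratio, so nothing is read from that share.

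The dye effect, by which the ratio lies above its balanced mean with Erbb2 in Cy5 and below it by the same amount with Erbb2 in Cy3, is a contrast the choice of genes did not use. It was tested with limma on the 5 arrays with a term for preparation. None of the 10 members passed (0 of 10), where 0.593% of all features did. At an unadjusted p under 0.05 there were 2 members, Csrp2 and Acta2, where 13.2% of features had such a p. Csrp2 had a dye effect of 0.48 (SE 0.19, limma adjusted p = 0.281). Acta2 had -0.44 (SE 0.19, limma adjusted p = 0.331) and Flna -0.41 (SE 0.20, limma adjusted p = 0.381). For the other 7 the estimate lay between -0.28 (Pdlim5) and 0.07 (Capg). Although no single effect passed, its sign was that of the mean ratio in 10 of 10 members, beside 55% of all features. The members were chosen for their mean, and their part in that count was not tested.

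**Figure D3:**
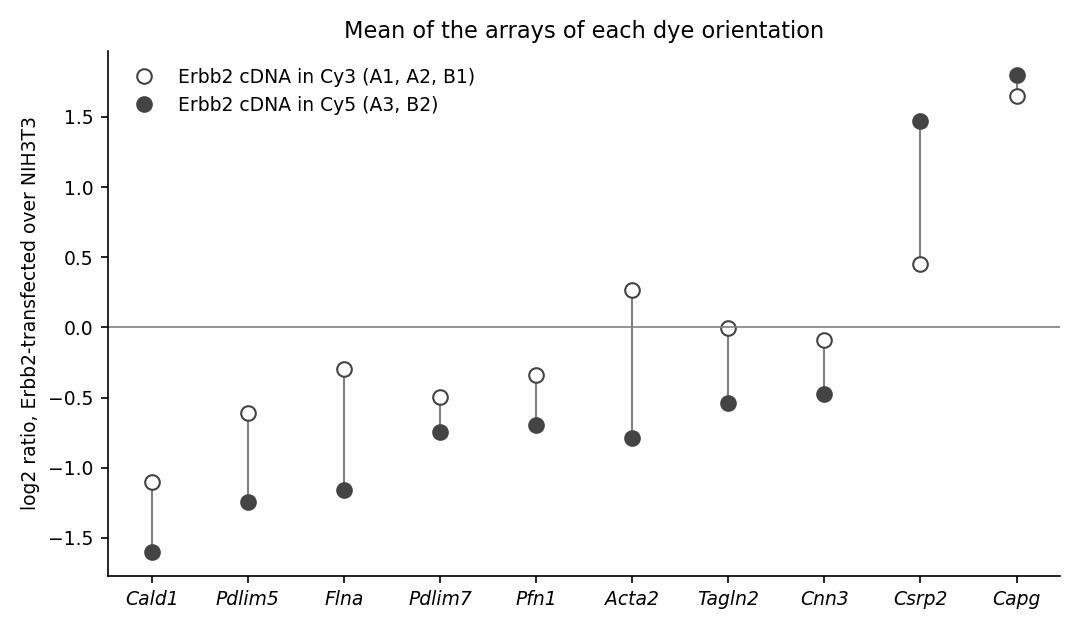
Mean log2 ratio of each of the 10 genes over the arrays with Erbb2 in Cy3 (A1, A2 and B1, open circles) and over those with Erbb2 in Cy5 (A3 and B2, filled circles), joined by a line. In all 10 genes the filled circle is farther from 0, for example at -1.16 against -0.30 for Flna and at 1.47 against 0.45 for Csrp2, and the circles of Acta2 lie on opposite sides of 0 (-0.79 and 0.27).

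The preparations differed most for smooth muscle actin. In preparation A minus preparation B, with a term for the dye, Acta2 had 1.04 (SE 0.38), the largest estimate of the 10, with an unadjusted p of 0.0137 and an adjusted p of 0.644 by limma. It did not pass, and no other member did (0 of 10), where 0.0204% of all features passed, 1 of 4892. Acta2 was also the only member at an unadjusted p under 0.05, where 6.75% of features had such a p. Cald1 had 0.63 (SE 0.37, limma adjusted p = 0.833), Pfn1 0.54 (SE 0.39, limma adjusted p = 0.904) and Pdlim5 0.48 (SE 0.38, limma adjusted p = 0.909). The ratio was the more negative in B for these genes. Capg and Csrp2, the genes with positive means, had -0.55 (SE 0.47) and -0.36 (SE 0.37), so that their ratios were the more positive in B. Pdlim7 had -0.16 (SE 0.38), and the rest lay between 0.24 and 0.44. Preparation A lay above B in 7 of 10 members, beside 50.2% of all features. The arrays of the preparations did not overlap for 3 of the 8 genes with a value on all arrays (Acta2, Cald1 and Pfn1), beside 21% of 2872 features. The SEs of these estimates ran from 0.37 to 0.47 over the members.

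**Figure D4:**
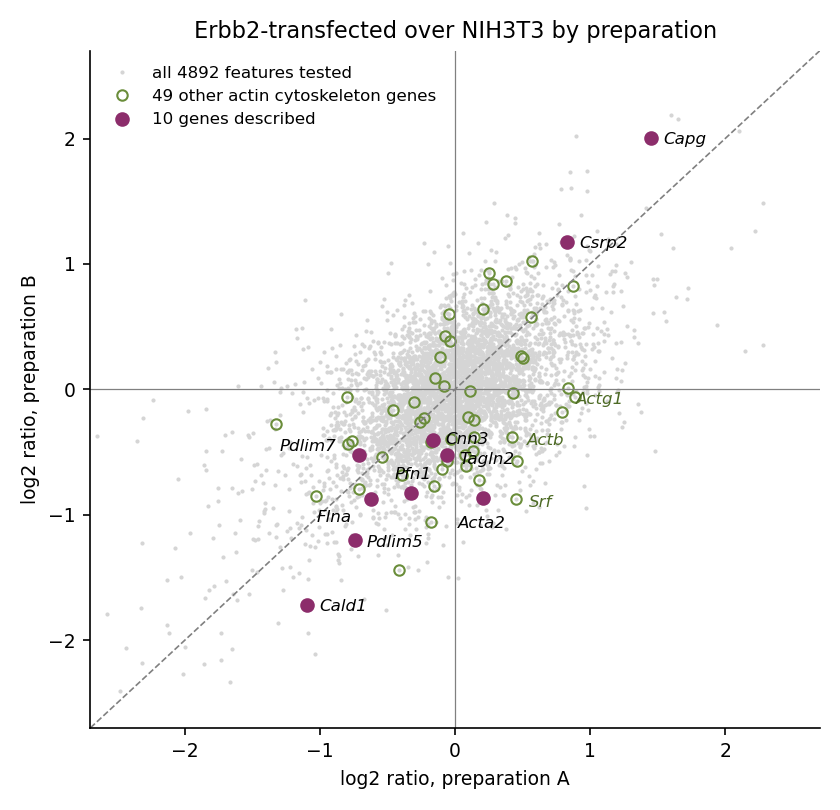
Log2 ratio of Erbb2-transfected over NIH3T3 cells in preparation A (horizontal axis) and preparation B (vertical axis) for all 4892 features tested (grey), 49 other genes of the actin cytoskeleton (open circles) and the 10 genes described (filled), with the dashed line marking equal values. Acta2, Actb, Actg1 and Srf lie to the right of 0 and below it, and 24 features lie outside the axes.

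The array with the highest value was often A2, and the one with the lowest often B2. A2 was the highest array in 6 of the 8 genes with a value on all arrays (75%), beside 25.2% of 2872 features. B2 was the lowest in 5 of 8 (62.5%), beside 26.9% of features. Both held at once for Pdlim5, Flna, Acta2 and Tagln2 (50%), beside 10.8% of features. The part of these arrays in the differences between members was not tested. Some values had the form that quotients of small integers give. Of 66 probe values of the members, 14 (21.2%) could be written as a constant plus log2 of a quotient of integers no larger than 300, within 6e-07, beside 41.4% of all probe values, a difference that was not tested. Acta2, Cnn3 and Csrp2 had 0 such values.

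Other genes of the actin cytoskeleton were read from a list. Of 180 listed genes besides the 10, 118 had a value and 49 were tested, of which 2 rose (4.08%), 2 fell (4.08%) and 45 did not pass, beside 2.25% of all features that rose and 4.54% that fell. Their median was -0.12, and 30 of the 49 (61.2%) were below 0, beside 52% of all features. Synpo, which encodes the actin-bundling protein synaptopodin, had 0.85 ± 0.03 (SD, n = 2; limma adjusted p = 0.0301), with 1.05 (A2), 0.69 (A3), 1.23 (B1) and 0.42 (B2). Parvb, a parvin of focal adhesions, had 0.80 ± 0.32 (SD, n = 2; limma adjusted p = 0.0494), although A3 was below 0 at -0.25 while A2 and B1 were at 1.39 and 1.62. Sptbn1, a beta spectrin that crosslinks cortical actin, had -0.94 ± 0.13 (SD, n = 2; limma adjusted p = 0.0194) and was below 0 on all 5 arrays, from -1.33 (A3) to -0.70 (A2). Ablim1, an actin-binding LIM protein, had -0.75 ± 0.06 (SD, n = 2; limma adjusted p = 0.0497). Its 2 probes disagreed, at -2.15 against -0.00 on A2, -1.57 against -0.52 on B1 and -1.12 against 0.01 on B2. All 4 lost their call in some settings, each without B1 and with arrays scaled to equal spread, and the highest adjusted p over the settings was 0.371 for Synpo, 0.536 for Parvb, 0.159 for Sptbn1 and 0.387 for Ablim1 (limma).

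**Figure D5:**
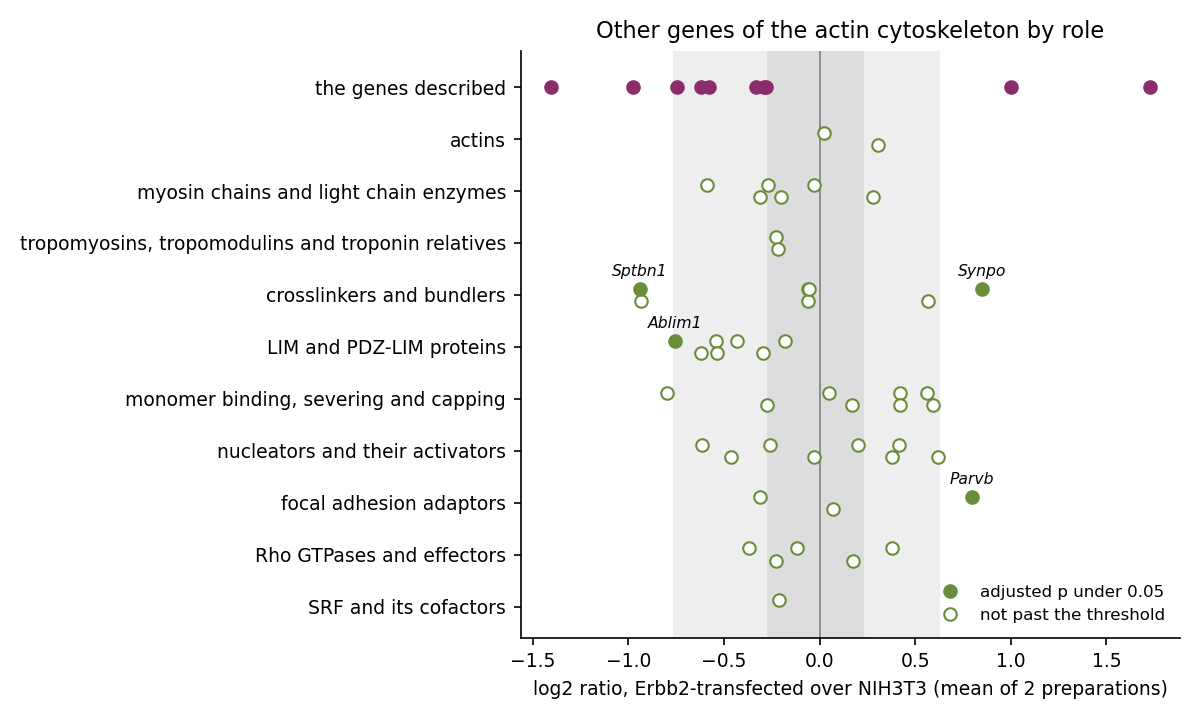
Mean log2 ratio (horizontal axis, mean of 2 preparations) of the 10 genes described (top) and of 49 other tested genes of the actin cytoskeleton by role. The 10 genes are drawn filled throughout, and the 49 are filled where the limma adjusted p was under 0.05 and open otherwise, with the dark grey band from the 25th to the 75th and the light grey band from the 5th to the 95th percentile of all features tested (-0.27 to 0.23 and -0.76 to 0.63). The 7 tested LIM and PDZ-LIM genes all lie below 0, and 4 of the 49 genes are filled. Genes that could not be tested, among them Tes with values above 0, are not drawn. Points of a role are spread vertically only for legibility.

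The 7 tested LIM and PDZ-LIM genes besides Pdlim5, Pdlim7 and Csrp2 were all below 0, with a median of -0.54 and 1 of them, Ablim1, past the threshold, beside 52% of all features below 0 and 4.54% called lower. Of the 19 listed genes of this role, 16 had a value on some array, and those not tested went both ways. Tes was above 0 on A1 (0.82), A2 (1.36), B1 (1.61) and B2 (0.27) and had no value on A3. Ablim3 was below 0 on A2 (-0.45), B1 (-0.10) and B2 (-0.10), the arrays that measured it. Whether the group differs from other genes was not tested. Pdlim1 and Pdlim4, relatives of Pdlim5 and Pdlim7, had -0.54 each, and Csrp1, a relative of Csrp2, had -0.30, the opposite sign to Csrp2. Pdlim3, a further relative that could not be tested, had 0.36 (A2), -0.02 (B1) and 0.28 (B2). Tes, Ablim3, Pdlim1, Pdlim3, Pdlim4 and Csrp1 were named after their values were seen. None of Pdlim1, Pdlim4 and Csrp1 passed. The cytoplasmic actins had 0.02 ± 0.57 (Actb) and 0.30 ± 0.69 (Actg1), neither past the threshold, and their preparation means were positive in A and negative in B, as for Acta2. Actb had 0.45 (A1), 0.80 (A2), 0.22 (A3), -0.60 (B1) and -0.16 (B2). Actg1 had 1.34 (A1), 0.94 (A2), 0.44 (A3), -0.13 (B1) and -0.23 (B2). The arrays of the preparations did not overlap in either gene, although single probes crossed 0. Of the Actg1 probes, 5329 had 0.06 on B1, 9982 had 0.01 on B2 and 18249 had -0.06 on A2, and the Actb probe 18946 had 0.05 on B2. The difference between preparations was 0.86 (SE 0.39, limma adjusted p = 0.696) for Actb and 1.01 (SE 0.38, limma adjusted p = 0.663) for Actg1. Serum response factor itself (Srf) had 0.45 in A and -0.87 in B, with a difference of 1.15 (SE 0.49, limma adjusted p = 0.694) and values from -1.70 (B2) to 0.85 (A3). Its 2 probes share only A2, where they had 0.42 and 0.07, and its mean of -0.21 became 0.20 without B2. At an unadjusted p under 0.05 for the difference between preparations there were 9 of the 49 genes (18.4%), beside 6.75% of all features, and 0 passed after adjustment.

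Of the regulators of myosin, the myosin phosphatase catalytic subunit Ppp1cb had -0.59 and the regulatory light chain Myl12a -0.31. Tropomyosin 2 (Tpm2), which lies along actin filaments, had -0.23, and the pointed-end capper Tmod3 had -0.22. Both means moved when an array was left out, since Tpm2 had -0.02 without A3 and Tmod3 had 0.09 without B2 and -0.52 without B1. Each of these also removes a dye orientation from a preparation, and the parts of array and dye were not tested. Among proteins that act on monomers and filament ends, Cap2 had -0.80 with 2 probes that disagreed (-3.32 and -0.45 on A2), and the coronin Coro1c had 0.59. Of the activators of branched filament nucleation, Wasf2 had -0.61 and Wipf1 0.62. Wasf2 probe 19225 had values only on B1 and B2 (-0.74 on each), where probe 19590 had -0.16 and -0.09. With probe 19590 alone the mean of Wasf2 was -0.46. Wipf1 was -1.03 on A2 and 1.78 on A3, and its mean without A3 was -0.08. The GTPases Rhoa and Cdc42, which drive stress fibres and filopodia, had 0.38 and -0.37. Rhoa was 1.66 on A1 and its mean without A1 was 0.24, and the Cdc42 probes disagreed on B2 (-1.60 and -0.01). None of these 10 genes passed, although in other settings Cap2 passed in 4 of 12 (lowest adjusted p = 0.0154, highest 0.249, limma) and Coro1c in 1 of 14 (lowest adjusted p = 0.0484, highest 0.610, limma).

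The genes whose array pattern lay nearest to that of Csrp2 and Cald1, the highest and lowest members with a value on all 5 arrays, were sought among 2006 genes by root mean square distance over the 5 log2 ratios. For Csrp2 these were Snx17 (0.22), Dicer1 (0.30) and Stag3 (0.35). For Cald1 they were Ahcyl1 (0.31), Prdm16os (0.32) and Anxa3 (0.37). Ahcyl1 ran from -0.61 on A2 to -2.27 on B2, and Snx17 ran from 0.12 on A1 to 1.34 on A3. None of the 6 was on the actin list.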

How the data were processed

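RNA of both lines was labelled with Cy3 or Cy5 and hybridised together, per the labels. The authors subtracted background from mean spot intensities and scaled each array to a median ratio of 1 (GenePix 4000A scanner and GenePix Pro 3.0, per the labels). The authors' deposited numbers are dye ratios on a log2 scale, a base read from the numbers themselves. On each array 19.1% to 58.6% could be written as a constant plus log2 of a quotient of integers no larger than 300, and at most 2.52% could under a natural logarithm. Values were not turned for dye exchange, since arrays of opposite orientation correlated negatively. The sources used here do not say why some cells are empty.

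The platform annotation gave 1 gene symbol for 11723 of 20205 probes, several for 806, and did not list 7676. Entrez identifiers matched RefSeq for 11590 probes, and 0 symbols changed. Probes of 1 symbol were averaged to a gene and others kept alone, which gave 18151 features. The 4892 features (3134 genes) measured in each orientation of each preparation entered the tests. Orientations were averaged within a preparation, and the 2 preparation means were tested against 0 with limma 3.58.1 in R 4.3.3 (lmFit, eBayes, Benjamini-Hochberg, threshold 0.05). Preparation and dye effects were tested with limma on 5 arrays. The procedure was tested on simulated data. Precision is limited by the number of arrays.

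The 10 genes and the lists were chosen with earlier results of these data known. Named besides the 10 were, in each role, up to 3 genes past the threshold or else up to 2 of largest absolute mean, and the 3 nearest patterns of Csrp2 and Cald1. Promoters came from RefSeq. Alternatives covered normalization, centring, filters, probe summary, the unit of replication and each array left out. Averaging only probes with values in both orientations of both preparations, and the CArG search with 1 other base, were chosen after seeing the data. Figures were drawn with matplotlib 3.10.9.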

Additional observations from a re-analysis of the deposited data

Results flagged for a closer look

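Of 33 genes checked (the 10 genes, 17 genes of the wider actin list and the 6 nearest patterns), 1 had an array that stood far apart from the others by Dixon's criterion, where chance gives about 5%. Anxa3, one of the genes nearest to Cald1 in pattern, had a log2 ratio of -1.59 on B2, while its 4 other arrays lay between -0.99 and -0.85.

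In 2 of the 33 genes every array of preparation A lay on the other side of 0 from every array of preparation B. How many of all features had such opposite signs was not counted. The arrays of the preparations did not overlap in 21% of 2872 features, so nothing is read from this count. Actb was positive on A1, A2 and A3 and negative on B1 and B2, with a difference A minus B of 0.86 (limma adjusted p = 0.696). Actg1 followed the same order of signs, with a difference of 1.01 (limma adjusted p = 0.663). Neither difference passed the test. The signs are those of probe averages, and single probes of both genes crossed 0.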

How the results depend on the processing

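The 332 features past the threshold (110 higher and 222 lower) became 112 (24 higher and 88 lower) with arrays scaled to equal spread, 544 in a fit on 5 arrays, 564 with only probes measured in both orientations of both preparations (chosen after seeing the data), and 198 (without B2) to 498 (without A1) with 1 array left out. The 4 calls in the wider actin list became 0 after scaling, 9 with 1 probe per gene and 8 on 5 arrays. They became 9 with the both-orientation probes and 1 (without B1 or B2) to 6 with 1 array left out. With only features on all arrays there were 2 calls among 36 list genes in place of 49. Synpo, Parvb and Ablim1 have no value on A1 and were not tested there, while Sptbn1 kept its call. Leaving out 1 array also changed the numbers tested. They ran from 2920 features and 36 list genes (without A2) to 8074 and 77 (without A3). The single preparation call became 4 after centring on features with a value on all arrays and 1 to 25 with 1 array left out (25 without A1 or A2). The 29 dye calls became 7 after scaling, 8 after quantile normalization, 4 with features on all arrays, 18 with 1 probe per gene, 18 with the both-orientation probes, and 0 (without B1) to 256 (without A1). The cause of these shifts was not tested.

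Whether repetition numbers pair the arrays could not be tested, because number 2 joins opposite dye orientations and the 2 arrays of preparation B mirror each other around their mean. Deviations correlated at -0.37 for A2 with B2, 0.37 for A2 with B1 and 0.42 for A3 with B2 over 2872 features. These were positive where the dye orientation was shared, but A1 with B1, which also share it, had only 0.03. With the replicate block on A1, A2, B1 and B2, the preparation comparison had 1 call.

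The members were chosen on their ratio, so their calls by setting are not given as support. Spot intensities were not used here, so signal over background sets no limit that can be given.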
